A study of Mus musculus with 6 samples.

Results

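The B and plasma cell genes examined here were Ms4a1, Cd79a, Cd79b, Cd22, Pax5, Ighm, Jchain and Mzb1. A probe set is the group of probes that reads 1 transcript on the array, and each gene was represented by its brightest probe set among those annotated with that symbol alone. All 8 genes were found among 19938 genes with such a probe set. Of these 8, 5 lay above the limit used to set dim genes aside (6.83 as a mean on the log2 scale, which is an intensity of 114), against 11963 of all genes. The 3 dim genes were Ms4a1, Cd79a and Pax5.

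The arrays measured total RNA of the visceral fat around the epididymis (eWAT) from male C57BL6/J mice made obese on a high fat diet (HFD), which lasted 12 weeks and began when the animals were 6 weeks old. The rAAV-Lmo3 mice had received into the depot a recombinant adeno-associated virus of the hybrid serotype Rec2 carrying Lmo3, a LIM-only transcriptional cofactor, and the rAAV-YFP mice had received the same kind of virus carrying yellow fluorescent protein. Each group held 3 arrays, and each array held the pooled RNA of 2 mice. The titles name YFP as the control cargo, whereas another field of the same labels names LacZ. All animals therefore shared the diet, the strain, the surgery and a viral vector, and the 6 arrays hold neither uninjected nor lean animals. The expression cassette was driven by a chicken beta-actin promoter with a viral enhancer, and which cells of the depot carried it was not measured on these arrays. The comparison asked how delivery of Lmo3 during obesity altered the transcripts of the depot.

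The probe set of Lmo3 read 24, 26 and 24 in intensity on the arrays labelled rAAV-Lmo3, against 25, 24 and 24 on the arrays labelled rAAV-YFP. These values lay at the dim end of the array and overlapped, so this probe set gave no check of the group labels, and directions are given as labelled. The study measured Lmo3 in this tissue by other assays, which were not used here. Whether its probes can read the delivered sequence was not tested. Median intensities of the 6 arrays ran from 123 to 127.5. The arrays rAAV-YFP 2 and rAAV-Lmo3 1 had the lowest mean correlations with the other arrays, 0.988 and 0.986, where the remaining arrays had 0.990 to 0.991. The fat cell genes Adipoq, encoding adiponectin, and Plin1, encoding the lipid droplet protein perilipin, had intensities of 8014 to 10809 and 4047 to 5635 in rAAV-Lmo3 samples and of 8364 to 10223 and 4206 to 5667 in rAAV-YFP samples.

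B cells recognise antigen through a membrane immunoglobulin that signals through the paired chains CD79A and CD79B, and inhibitory coreceptors such as CD22 set the threshold of that signal. The transcription factor PAX5 holds the identity of the lineage and is lost when a B cell becomes a plasma cell, which secretes immunoglobulin in bulk with the help of endoplasmic reticulum proteins. In visceral fat, B cells lie scattered through the tissue and in fat-associated lymphoid clusters, and plasma cells there release IgM and other antibodies. In whole tissue, fewer cells of a type and less RNA per cell cannot be told apart.

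Across the 8 genes the groups were hardly separated. No gene passed limma after adjustment over all 11963 genes tested (0 of the 5 tested members, and 0% of all genes). At an unadjusted p under 0.05, 1 of the 5 tested members, Ighm, was lower in rAAV-Lmo3, against 2.4% of all genes tested, and 0 were higher, against 2.27%. Ighm was also the only member whose groups did not overlap, being lower in rAAV-Lmo3, where 5.95% of genes tested were lower without overlap and 4.53% higher without overlap. The methods' t-test, run on the same values, called 0 members before adjustment, Ighm included. Among all genes it gave 233 higher and 322 lower before adjustment and 0 after it. The median difference over the 8 genes was -0.11 on the log2 scale, rAAV-Lmo3 minus rAAV-YFP, and over all genes tested it was 0.00. The arrays of a group also differed among themselves, and 7 of the 8 genes were highest on the array rAAV-YFP 3, against 15.9% of the genes tested and 12.9% of all genes.

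Ms4a1, which encodes the B cell surface protein CD20, had intensities of 28, 28 and 45 in rAAV-Lmo3 samples, against 27, 25 and 79 in rAAV-YFP samples. The arrays rAAV-Lmo3 3 and rAAV-YFP 3 were high and the other arrays lay close together near background, so the groups overlapped. The log2 difference was -0.20 ± 0.46 (SE, limma without a filter on dim genes, unadjusted p = 0.678, exact permutation p = 1). With 3 pools on each side the exact test cannot give a p under 0.1. The B cell markers Cr2 and Fcer2a were dim as well. Cr2, a complement receptor, had 31 to 33 in rAAV-Lmo3 and 32 to 36 in rAAV-YFP samples. Fcer2a, the low affinity IgE receptor, had 49 to 59 in rAAV-Lmo3 and 50 to 72 in rAAV-YFP samples.

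Cd79a and Cd79b encode the signalling chains of the B cell receptor. Cd79a had intensities of 34, 45 and 54 in rAAV-Lmo3 samples and 38, 32 and 85 in rAAV-YFP samples. Cd79b had intensities of 154, 179 and 179 in rAAV-Lmo3 samples and 154, 150 and 230 in rAAV-YFP samples. Both genes were highest on rAAV-YFP 3 and lowest on rAAV-YFP 2, so the controls enclosed all rAAV-Lmo3 values. Their log2 differences were -0.11 ± 0.38 for Cd79a (SE, limma without a filter, unadjusted p = 0.783, exact permutation p = 0.9) and -0.04 ± 0.18 for Cd79b (SE, limma, unadjusted p = 0.847, adjusted p = 0.993, exact permutation p = 1).

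Cd22, the inhibitory coreceptor, was the member that did not peak on rAAV-YFP 3. It had intensities of 174, 254 and 306 in rAAV-Lmo3 samples, against 271, 180 and 262 in rAAV-YFP samples. The highest and the lowest value both lay in the rAAV-Lmo3 group, on rAAV-Lmo3 3 and rAAV-Lmo3 1. The log2 difference was 0.03 ± 0.25 (SE, limma, unadjusted p = 0.915, adjusted p = 0.996, exact permutation p = 1), and its sign turned when rAAV-Lmo3 2, rAAV-Lmo3 3 or rAAV-YFP 2 was left out, to -0.02, -0.15 and -0.16. A score for macrophage markers, the mean over 28 genes of the log2 value centred on each gene's mean, was -0.30, 0.16 and 0.37 in rAAV-Lmo3 and 0.40, -0.65 and 0.01 in rAAV-YFP samples. The arrays rAAV-Lmo3 1 and rAAV-YFP 2 were the low ones for both Cd22 and this score. This was not particular to macrophage markers. On the same kind of score these arrays were also lowest for MHC class II genes (-0.72 and -0.43) and B cell receptor genes (-0.36 and -0.41). They were highest for adipocyte markers (0.28 and 0.25). The macrophage genes summed to intensities of 41574 to 72804 in rAAV-Lmo3 and of 33226 to 75501 in rAAV-YFP samples, their dimmest gene read 52, and their part in the Cd22 values was not tested.

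**Figure D1:**
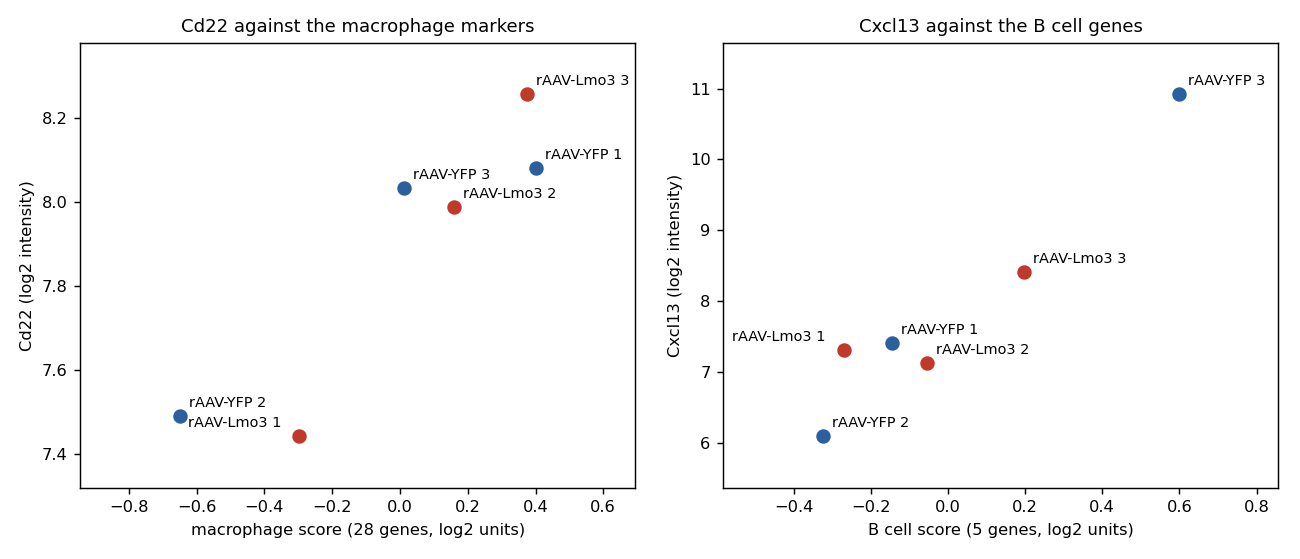
Left, log2 intensity of Cd22 (vertical axis) against the macrophage score (horizontal axis, log2 units relative to each gene's mean). Right, log2 intensity of Cxcl13, a chemokine that attracts B cells, against the mean of Ms4a1, Cd79a, Cd79b, Cd22 and Pax5 on the same kind of scale. Each point is 1 array (red, rAAV-Lmo3; blue, rAAV-YFP). Cd22 was lowest on the arrays with macrophage scores of -0.30 and -0.65, and the Cxcl13 intensity of 1943 on rAAV-YFP 3 stands beside the highest B cell score, 0.60.

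Pax5, the transcription factor of B cell identity, had intensities of 94, 88 and 91 in rAAV-Lmo3 samples, against 86, 92 and 120 in rAAV-YFP samples. The rAAV-YFP 3 value stood above the other arrays, which lay within the range of 86 to 94. The log2 difference was -0.11 ± 0.13 (SE, limma without a filter, unadjusted p = 0.42, exact permutation p = 0.8).

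Ighm encodes the constant region of the mu heavy chain, found in the membrane receptor of B cells and in secreted IgM. Its brightest probe set, 10402991, had intensities of 257, 194 and 216 in rAAV-Lmo3 samples, against 324, 282 and 541 in rAAV-YFP samples. Every rAAV-Lmo3 array was below every rAAV-YFP array, with log2 means of 7.79 ± 0.20 in rAAV-Lmo3 and 8.52 ± 0.50 in rAAV-YFP (SD, n = 3 each). The ratio of the group means was 0.602, a log2 difference of -0.73 ± 0.25 (SE, limma, unadjusted p = 0.0224, adjusted p = 0.97). The exact permutation p was 0.1, the smallest this design allows. Without rAAV-YFP 3 the difference was -0.45, and over the 6 ways to leave out 1 array the unadjusted limma p ran from 0.00981 to 0.0721, being above 0.05 without rAAV-Lmo3 2 (0.0721) and without rAAV-Lmo3 3 (0.0548).

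The 3 probe sets annotated to Ighm alone disagreed on whether the groups overlap. Probe set 10402864 had intensities of 185, 192 and 211 in rAAV-Lmo3 samples and 212, 172 and 374 in rAAV-YFP samples. Probe set 10403069 had intensities of 44, 38 and 201 in rAAV-Lmo3 samples and 95, 24 and 325 in rAAV-YFP samples. In both, rAAV-YFP 2 was the lowest array, rAAV-YFP 3 the highest, and the groups overlapped. Their log2 differences were -0.29 (exact permutation p = 0.6) and -0.38 (exact permutation p = 0.8), and without rAAV-YFP 3 they were 0.04 and 0.54. The mean over all 3 probe sets gave a difference of -0.47 (limma, unadjusted p = 0.371). Immunoglobulin genes lie close together and resemble each other in sequence, so a probe set can read more than 1 of them.

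Jchain encodes the joining chain that links IgM and IgA into polymers. It had intensities of 211, 146 and 362 in rAAV-Lmo3 samples, against 489, 150 and 698 in rAAV-YFP samples. The arrays differed 4.78-fold from lowest to highest, and rAAV-YFP 2 lay among the rAAV-Lmo3 values, so the groups overlapped. The log2 difference was -0.73 ± 0.60 (SE, limma, unadjusted p = 0.262, adjusted p = 0.971, exact permutation p = 0.4), as far below 0 as that of Ighm with a larger error. The value was -0.28 without rAAV-YFP 3 and -1.39 without rAAV-YFP 2, where the unadjusted limma p was 0.0133.

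Mzb1, a chaperone of the endoplasmic reticulum in antibody-secreting and marginal zone B cells, had intensities of 139, 139 and 126 in rAAV-Lmo3 samples and 137, 139 and 151 in rAAV-YFP samples. The arrays differed 1.2-fold from lowest to highest and the groups overlapped. The log2 difference was -0.08 ± 0.08 (SE, limma, unadjusted p = 0.373, adjusted p = 0.971, exact permutation p = 0.6).

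**Figure D2:**
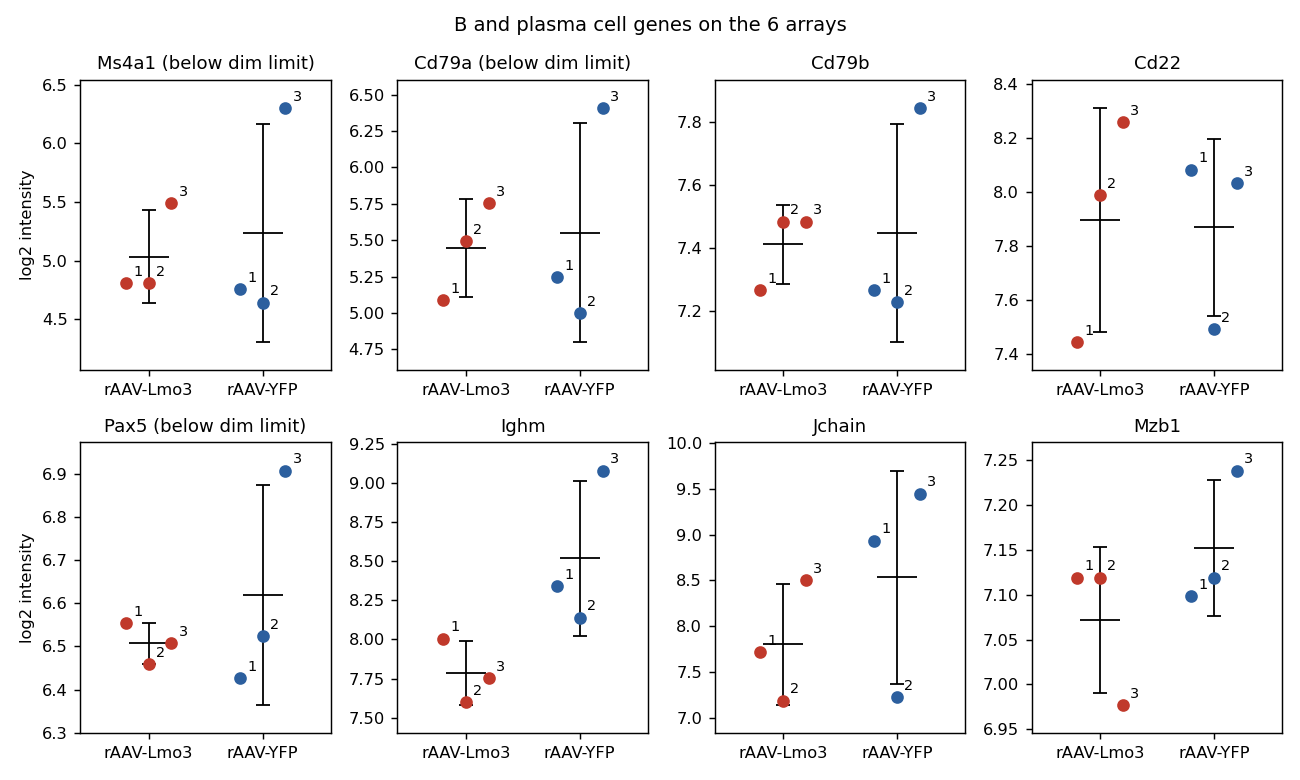
Log2 intensity of each B and plasma cell gene by array (vertical axes, scaled per gene; red, rAAV-Lmo3; blue, rAAV-YFP; the digit beside a point is the replicate number; the black line and bar give the mean ± SD, n = 3). The array rAAV-YFP 3 is the highest point in 7 of the 8 panels, and Ighm is the only gene whose groups are separate.

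The spread between pools differed widely among the members. The SD within groups was 0.94 for Jchain, 0.71 for Ms4a1 and 0.58 for Cd79a on the log2 scale, larger than that of 99.7%, 98.9% and 97.6% of the genes tested. Ms4a1 and Cd79a are dim and not among the genes tested, so they are set against brighter genes. The SD of Mzb1 was 0.08, larger than that of 17.7% of the genes tested, and the median over all genes tested was 0.14. Ighm and Cd22, with 0.38 and 0.37, lay above 92.5% and 92.3% of genes.

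Array rAAV-YFP 3 carried much of the spread of some members only. Without it the limma SE fell for Ms4a1 (0.46 to 0.23), Cd79a, Cd79b, Pax5 and Ighm. It hardly fell for Mzb1 (0.084 to 0.079), and it did not fall for Jchain (0.60 to 0.61) or Cd22 (0.25 to 0.30). Jchain was higher on rAAV-YFP 3 by 1.53 on the log2 scale than the mean of the other 5 arrays, Ms4a1 by 1.40, Ighm by 1.11 and Cd79a by 1.09. A difference of at least 1 in this sense was found for 4 of the 8 members and for 28 genes, or 0.14%, of all 19938. Without rAAV-YFP 3 the median difference over the members was 0.07, with 5 genes above 0 and 3 below, where with all arrays 1 was above 0 and 7 below. The differences of Ms4a1, Cd79a, Cd79b and Pax5 then turned to 0.34, 0.32, 0.16 and 0.03, and those of Ighm, Jchain and Mzb1 stayed below 0.

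**Figure D3:**
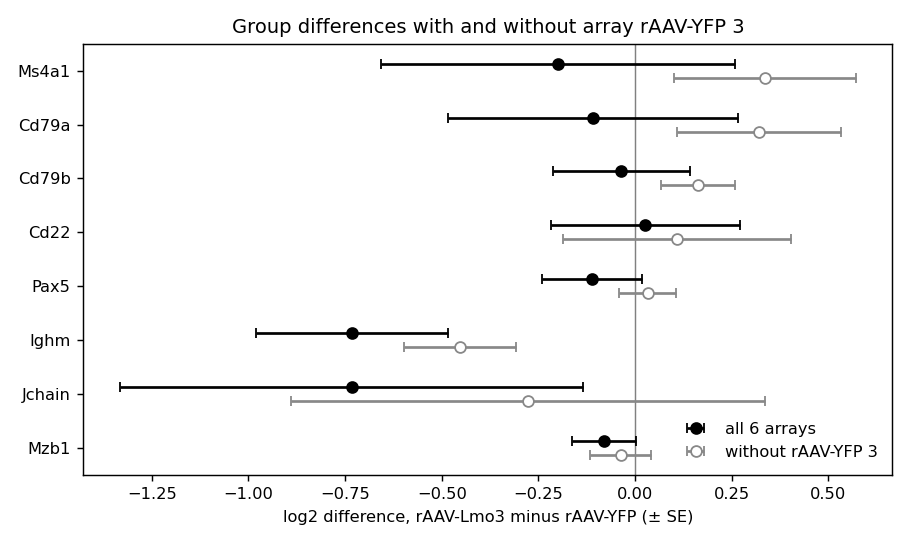
Log2 difference, rAAV-Lmo3 minus rAAV-YFP, of each gene (horizontal axis; points, limma estimate; bars, ± SE) with all 6 arrays (black) and without rAAV-YFP 3 (open grey). Leaving out that array moves every estimate to the right, from -0.20 to 0.34 for Ms4a1 and from -0.73 to -0.45 for Ighm.

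Promoter windows of 300 bases, 250 before and 50 after a transcript start, were held for 4 of the 8 genes in a RefSeq table (GRCm38.p6): Cd79a, Cd22, Pax5 and Jchain. The windows of Cd79a and Jchain are shown because these genes were high together on rAAV-YFP 3, and that of Cd22 because it was not. Each is written 5′ to 3′ on the strand of the gene, and capitals mark matches to a searched motif. Cd79a lies at chr7:24897247-24897546 on the plus strand, Cd22 at chr7:30878979-30879278 on the minus strand and Jchain at chr5:88527848-88528147 on the minus strand. The Cd79a and Jchain windows lie at the 5′ end of the gene. The Cd22 window lies at a start inside the gene, whose 5′ end is at position 30880342.
Cd79a: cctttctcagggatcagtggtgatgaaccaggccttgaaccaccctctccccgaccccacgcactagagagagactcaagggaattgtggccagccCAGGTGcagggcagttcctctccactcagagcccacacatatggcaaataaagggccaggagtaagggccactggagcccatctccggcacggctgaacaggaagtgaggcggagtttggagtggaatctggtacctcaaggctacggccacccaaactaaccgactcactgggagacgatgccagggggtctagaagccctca
Cd22: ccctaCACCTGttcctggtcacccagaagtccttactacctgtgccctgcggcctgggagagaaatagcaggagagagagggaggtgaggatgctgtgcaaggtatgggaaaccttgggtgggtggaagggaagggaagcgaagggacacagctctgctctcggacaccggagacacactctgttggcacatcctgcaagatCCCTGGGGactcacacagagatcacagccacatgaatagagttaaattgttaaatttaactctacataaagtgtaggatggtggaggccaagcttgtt
Jchain: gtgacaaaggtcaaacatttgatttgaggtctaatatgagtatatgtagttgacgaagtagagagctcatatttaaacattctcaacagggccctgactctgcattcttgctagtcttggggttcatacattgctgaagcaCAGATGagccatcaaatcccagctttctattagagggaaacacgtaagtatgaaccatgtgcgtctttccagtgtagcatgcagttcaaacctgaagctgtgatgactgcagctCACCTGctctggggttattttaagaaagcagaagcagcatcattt

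The motifs searched on both strands were the octamer ATGCAAAT, bound by POU factors at immunoglobulin promoters, CCCNNGGG for EBF1, GAGGAAG for ETS factors of the PU.1 kind, and the E-box CANCTG. They were present in 1.74%, 13.7%, 13.6% and 51.4% of all 32851 windows of this length. Only exact matches to these letters were counted, so a binding site that departs from them is not marked, and a missing match does not show a missing site. Cd79a held 1 E-box, at position -154 from the start. Cd22 held 1 match to CCCNNGGG, at -48, and 1 E-box, at -245, both counted from its start inside the gene. Jchain held 2 E-boxes, at -109 and at 6, and Pax5 held no match to any of these motifs. No matches overlapped within these windows, and E-boxes, the motif shared by Cd79a, Cd22 and Jchain, were common among all promoters.

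Immunoglobulin genes other than Ighm were read by 28 probe sets, 7 of heavy, 19 of kappa and 2 of lambda chains, which were chosen after their values were seen. Of these, 12 carried 1 symbol and 16 several, so most were annotated to more than 1 gene segment. As for the members, 24 of the 28 were highest on rAAV-YFP 3, against 12.3% of all probe sets. Several of the 28 carry the same symbols, as do 10403015 and 10403018, so they are not separate observations. That array is 1 pool of 2 mice. The largest range was that of probe set 10403021, annotated to Igha and Ighv1-33, with 78, 133 and 494 in rAAV-Lmo3 samples and 494, 62 and 4805 in rAAV-YFP samples. Igha, the constant region of IgA, had 71, 110 and 227 in rAAV-Lmo3 samples and 223, 86 and 349 in rAAV-YFP samples on its brightest probe set of its own, and the groups overlapped. Probe set 10545184, which includes the kappa constant region Igkc, had 287, 335 and 1214 in rAAV-Lmo3 samples and 766, 1088 and 2487 in rAAV-YFP samples.

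Single kappa probe sets departed from that order. Probe set 10545177 of Igkv19-93 had an intensity of 781 on rAAV-Lmo3 1, where the other arrays had 125 and 172 in rAAV-Lmo3 and 139, 192 and 323 in rAAV-YFP. Probe set 10545182, also annotated to Igkv19-93 alone, did not share this. It had 119, 120 and 136 in rAAV-Lmo3 samples and 134, 139 and 198 in rAAV-YFP samples. Igkv8-30 had 213 on rAAV-Lmo3 3, where the other arrays had 31 and 22 in rAAV-Lmo3 and 25, 19 and 45 in rAAV-YFP. Igkv5-43 had 29, 23 and 27 in rAAV-Lmo3 samples and 238, 40 and 194 in rAAV-YFP samples, and was 1 of 2 among these 28 probe sets whose groups did not overlap, both lower in rAAV-Lmo3, against 4.78% of all probe sets. From lowest to highest array the 28 probe sets differed 1.66-fold to 77.5-fold, with a median of 6.61-fold. Their median difference was -0.68 with all arrays, with 24 below 0, and -0.04 without rAAV-YFP 3, with 15 below 0.

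**Figure D4:**
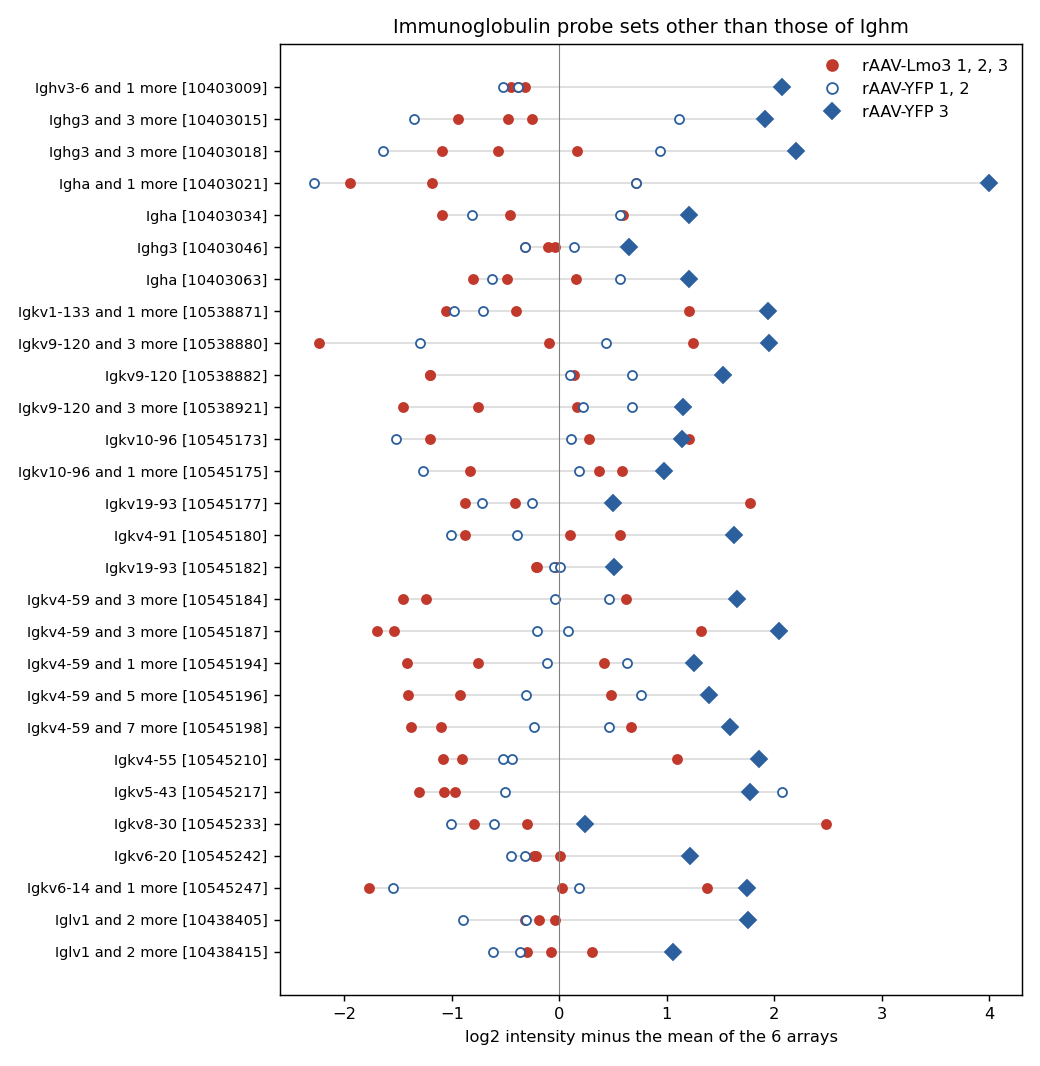
Log2 intensity of the 28 immunoglobulin probe sets other than those of Ighm, relative to the mean of the 6 arrays (horizontal axis; 1 probe set per line, named by its first symbol and its number; red, rAAV-Lmo3; open blue, rAAV-YFP 1 and 2; blue diamonds, rAAV-YFP 3). The diamond is the rightmost mark on 24 lines. Single red marks stand apart for probe set 10545177 of Igkv19-93, but not for its probe set 10545182, and for Igkv8-30.

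Further genes of the lineage were counted in 5 lists. Of 22 tested genes of the B cell receptor and its coreceptors, 0 were higher and 1 was lower at an unadjusted p under 0.05, where 2.27% of all genes tested were higher and 2.4% lower. Of 12 tested surface and cytoplasmic markers, 0 were higher and 0 lower, and of 16 tested B lineage transcription factors, 0 were higher and 2 lower. Of 25 tested genes of the plasma cell program, 1 was higher and 1 lower, and of 15 tested survival and homing factors, 0 were higher and 2 lower. No gene of these lists passed after adjustment, and the list medians ran from -0.10 to 0.02 with all arrays and from 0.01 to 0.09 without rAAV-YFP 3. None of the 7 genes counted here kept an unadjusted limma p under 0.05 in all 6 fits that left out 1 array, and without rAAV-YFP 3 only Nfatc1 did. Of the genes on the array, 7 of 24 receptor genes, 13 of 22 surface markers and 9 of 18 transcription factors were highest on rAAV-YFP 3. The same held for 6 of 30 plasma cell program genes and 6 of 28 survival and homing factors, against 12.9% of all genes. Many genes of these lists are also expressed by other cells of fat.

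Ikzf3, encoding the lymphocyte factor Aiolos, had intensities of 106, 97 and 101 in rAAV-Lmo3 samples, against 129, 110 and 159 in rAAV-YFP samples. The groups did not overlap, and the log2 difference was -0.37 ± 0.14 (SE, limma, unadjusted p = 0.0332, adjusted p = 0.97). Without rAAV-YFP 3 it was -0.23 (limma, unadjusted p = 0.0769). Among the receptor genes, the difference was -0.23 ± 0.08 for Nfatc1, a transcription factor downstream of the receptor, -0.36 ± 0.20 for Malt1, which relays its signal to NF-kB (-0.17 without rAAV-YFP 3), and -0.19 ± 0.12 for Cd81, a tetraspanin of the B cell surface. Among surface markers, it was -0.16 ± 0.08 for Tnfrsf13c, the BAFF receptor, 0.45 ± 0.26 for Cd83 and 0.19 ± 0.48 for Cd180. The transcription factors Foxo1 and Ebf1, both also active in fat cells, had -0.30 ± 0.12 and -0.26 ± 0.17. In the plasma cell program, the chaperone cofactor Dnajb9 had 0.33 ± 0.12, Trp53inp1 -0.29 ± 0.11 and the chaperone Hspa5 0.02 ± 0.12. Of the homing receptors, S1pr1 had -0.36 ± 0.13 and Ccr7 -0.19 ± 0.08. None of these differences passed after adjustment. The plasma cell markers Xbp1, Sdc1, Prdm1 and Tnfrsf17, the last of them dim, were named after their values were seen. On rAAV-YFP 3 they exceeded the mean of the other 5 arrays by 0.03, 0.00, 0.17 and 0.075 on the log2 scale. In the same measure Jchain had 1.53, Ighm 1.11 and Mzb1 0.15.

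Cxcl13, the chemokine that draws B cells into follicles, was named after its values were seen. It had intensities of 158, 139 and 339 in rAAV-Lmo3 samples, against 169, 68 and 1943 in rAAV-YFP samples. The arrays differed 28.6-fold, with the peak on rAAV-YFP 3, and the log2 difference was -0.53 ± 1.16 with all arrays (SE, limma, unadjusted p = 0.663, adjusted p = 0.985) and 0.87 without rAAV-YFP 3. Its receptor gene Cxcr5 was dim, at 29 to 33 in rAAV-Lmo3 and 30 to 43 in rAAV-YFP samples.

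The patterns most like the members over the 6 arrays were sought among all other tested genes. For the mean of Ms4a1, Cd79a, Cd79b, Cd22 and Pax5 they were Crcp (Pearson r = 0.994, Spearman rho = 0.943), Sfrp2 (0.990 and 1.000), Zfp40 (0.989 and 1.000), Fmod (0.983 and 0.943) and Gramd3 (0.983 and 1.000). Sfrp2, a secreted frizzled-related protein, had 519, 659 and 810 in rAAV-Lmo3 samples and 564, 423 and 1583 in rAAV-YFP samples. Fmod, the matrix proteoglycan fibromodulin, had 240, 307 and 476 in rAAV-Lmo3 samples and 288, 274 and 840 in rAAV-YFP samples. For the mean of Ighm, Jchain and Mzb1 they were Fkbp14 (0.953 and 0.943), Def6 (0.951 and 0.829), 1110051M20Rik (0.950 and 0.986), Ikzf3 (0.947 and 0.771) and Trnp1 (0.946 and 0.899). All 10 genes were highest on rAAV-YFP 3, and as the extremes of many correlations over 6 arrays these values are descriptions only.

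Markers of other cells also moved between arrays. Mesothelial genes, which mark the lining of the fat depot, were highest on rAAV-YFP 3 for 9 of 13, with list scores of -0.12, -0.29 and 0.03 in rAAV-Lmo3 and -0.22, 0.01 and 0.60 in rAAV-YFP samples. They summed to 1461 to 1889 in rAAV-Lmo3 and 1559 to 3108 in rAAV-YFP samples, with a dimmest reading of 43. Lymph node and milky spot stroma markers summed to 4550 to 7944 in rAAV-Lmo3 and 6187 to 10673 in rAAV-YFP samples, with 5 of 13 highest on rAAV-YFP 3 and a dimmest reading of 31. Their list scores were -0.20, -0.02 and 0.02 in rAAV-Lmo3 and 0.00, -0.18 and 0.37 in rAAV-YFP samples. This list includes Cxcl13, which on rAAV-YFP 3 lay 3.66 on the log2 scale above the mean of the other 5 arrays. It also includes the B cell markers Fcer2a and Cr2. Its chemokine gene Ccl19 had 279, 556 and 365 in rAAV-Lmo3 samples and 323, 277 and 589 in rAAV-YFP samples. The lymph node vessel genes Glycam1 and Madcam1 were dim, at 44 to 49 and 56 to 70 in rAAV-Lmo3 and at 46 to 54 and 61 to 70 in rAAV-YFP samples. T and NK cell markers summed to 2552 to 2676 in rAAV-Lmo3 and 2638 to 3098 in rAAV-YFP samples, with a dimmest reading of 29, and 11 of 27 were highest on rAAV-YFP 3. Of 8 tested, 0 were higher and 3 lower at an unadjusted p under 0.05, namely Cd3e, Cd2 and Cd247, against 2.27% and 2.4% of all genes tested. Over the 6 fits that left out 1 array, the unadjusted limma p of Cd2 stayed under 0.05, and those of Cd3e and Cd247 reached 0.122 and 0.0722. Cd3e, a chain of the T cell receptor complex, had 183, 245 and 220 in rAAV-Lmo3 samples and 268, 248 and 355 in rAAV-YFP samples, a difference of -0.42 ± 0.17 without overlap, and of -0.27 when rAAV-YFP 3 was left out. For Cd2 the difference was -0.37 ± 0.10, and -0.29 without that array. For Cd247 it was -0.21 ± 0.07, and -0.19 without that array. The median over the tested T and NK cell markers was -0.1445 with all arrays and -0.1460 without rAAV-YFP 3. The part of these cells in the values of Ighm, Jchain and the other members was not tested.

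**Figure D5:**
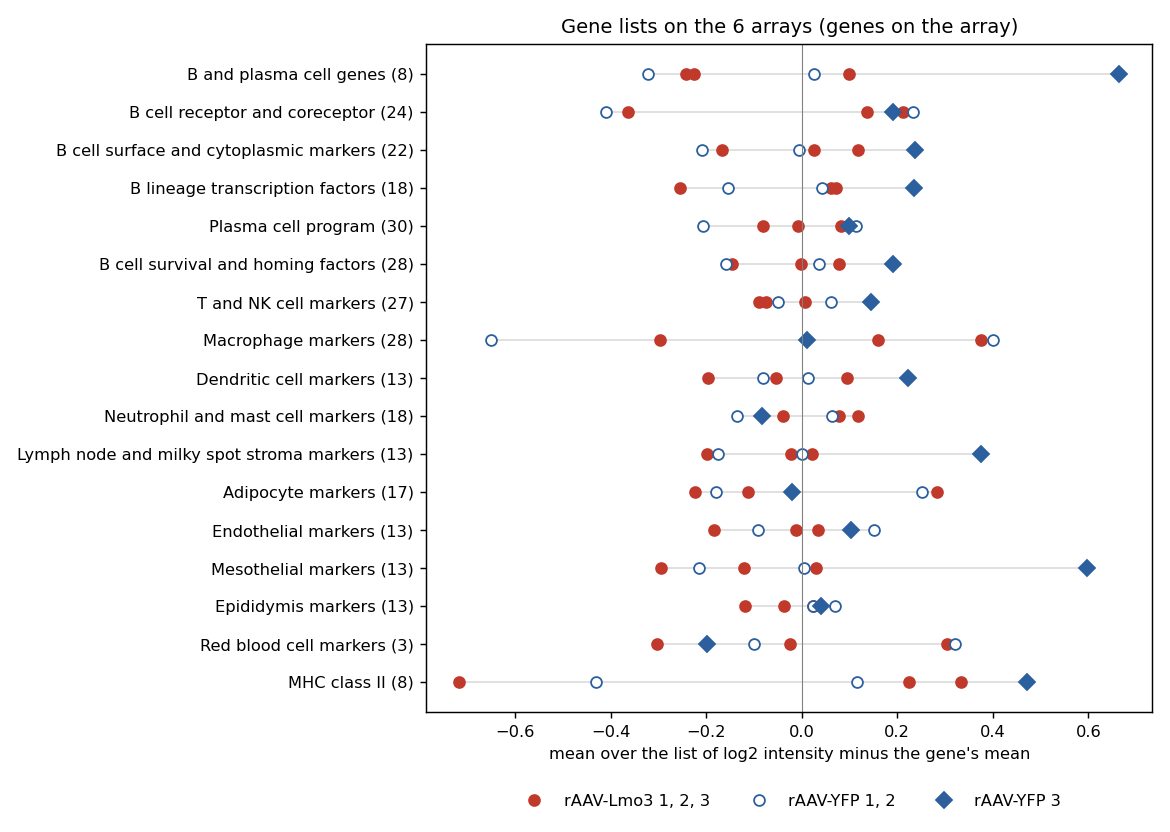
Mean over each gene list of the log2 intensity centred on each gene's mean (horizontal axis; lists on the vertical axis with the number of genes on the array; red, rAAV-Lmo3; open blue, rAAV-YFP 1 and 2; blue diamonds, rAAV-YFP 3). The diamond stands apart on the right for the B and plasma cell genes, at 0.67, and for mesothelial markers, at 0.60. It does so too for lymph node and milky spot stroma markers, at 0.37, a list that holds Cxcl13, Fcer2a and Cr2. It lies near 0, at 0.01, for macrophage markers.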

How the data were processed

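The 6 arrays of mouse eWAT RNA (Affymetrix mouse Gene ST) were grouped by the labels into 3 rAAV-Lmo3 and 3 rAAV-YFP pools, so that p-values measure the spread between pools. The deposited values are intensities per probe set that the authors summarised by RMA in Affymetrix Expression Console 1.1, on a linear scale in whole numbers, which is coarse for dim genes. Here log2 was taken. Of 35556 probe sets, 21789 carried 1 symbol, 1621 several and 12146 none; 21698 were matched in the RefSeq name table. The brightest probe set by mean log2 represented a gene, and genes in the lowest 40% by that mean were set aside. The test was limma 3.58.1 (R 4.3.3; two-sided, Benjamini-Hochberg, threshold 0.05), beside exact two-sided permutation tests. The fit was tested on simulated data. No batch is given in the labels. The number of arrays limits the precision.

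The members, the lists and the tests were chosen with earlier results of these data known. Named were the 8 members, Lmo3, from each of 5 lineage lists the 2 genes with the smallest p and the brightest, and the 5 genes most correlated with each of the 2 member scores; all others were named after their values were seen. Alternatives were other scalings, array weights, a trend and robust prior, a replicate block, other limits on dim genes, the mean over probe sets, the methods' t-test, and leaving out arrays.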

Additional observations from a re-analysis of the deposited data

How the results depend on the processing

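Under every alternative 0 genes passed after adjustment, and Ighm, Jchain and Mzb1 kept their sign, with ranges without 1 array of -0.92 to -0.45, -1.39 to -0.28 and -0.11 to -0.03. Without 1 array the difference ran from -0.49 to 0.34 for Ms4a1, -0.38 to 0.32 for Cd79a, -0.14 to 0.16 for Cd79b, -0.16 to 0.25 for Cd22 and -0.21 to 0.032 for Pax5, all of which changed sign, and the median over the members from -0.27 to 0.07. The genes higher at an unadjusted p under 0.05 numbered 122 to 404 without 1 array, against 271, and the lower ones 140 to 339, against 287. With no filter on dim genes 458 were lower and 382 higher, because more genes were tested. Centring each array on its median gave 317 higher and 216 lower. Same-numbered arrays deviated with correlations of -0.548, -0.398 and 0.263, so no pairing by number was seen. With so few arrays these values cannot exclude a pairing that the labels do not give. The replicate block left the median at -0.11, with 216 higher and 237 lower. In that fit the unadjusted limma p was 0.026 for Ighm and 0.0411 for Jchain. The causes were not tested. Dim values, as for Ms4a1, limit what could be detected.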

Other observations

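Lists of further cell types held no gene that passed limma after adjustment. Of 17 adipocyte markers tested, 0 were higher and 0 lower at an unadjusted p under 0.05, with a median difference of -0.03 on the log2 scale. Of 12 endothelial markers 0 were higher and 1 lower, with a median of -0.06. Of 26 macrophage markers 0 were higher and 1 lower, with 21 above 0 and a median of 0.21. Of 7 MHC class II genes 0 were higher and 0 lower, with a median of -0.14 that was 0.11 without rAAV-YFP 3, and with list scores of -0.72, 0.33 and 0.22 in rAAV-Lmo3 and 0.12, -0.43 and 0.47 in rAAV-YFP samples. Of 5 dendritic cell markers 0 were higher and 0 lower, with a median of -0.11. Of 7 neutrophil and mast cell markers 0 were higher and 1 lower, with 6 above 0 and a median of 0.19. No epididymis marker lay above the dim limit. Red blood cell markers had 2 genes tested, with 0 higher and 0 lower. Of all genes tested, 2.27% were higher and 2.4% lower at that p.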
